A study of Mus musculus with 29 samples.

Results

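The constitutive proteasome genes are the genes for the subunits of the 26S proteasome and of its activator complexes, without the 3 subunits that replace the catalytic ones under interferon (Psmb8, Psmb9 and Psmb10). Members were taken from the gene symbols of the deposited count table: every symbol made of Psma, Psmb, Psmc, Psmd or Psme and a number, which gave 40 of 24770 rows. They comprised 8 Psma genes and 8 Psmb genes of the 20S core, 6 Psmc and 14 Psmd genes of the 19S cap, and 4 Psme genes of the activators. The rule used names and no measured value.

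The libraries came from young adult male C57BL/6J wild-type mice in 4 groups: sedentary controls fed freely, calorie restriction (CR, intake lowered in weekly steps), treadmill training (EX), and both together (CREX). Brown adipose tissue (BAT) gave 15 libraries, from 3 control, 4 CR, 4 EX and 4 CREX samples, and gastrocnemius (skeletal muscle, SkM) gave 14, from 4 control, 3 CR, 4 EX and 3 CREX samples. The labels do not say which BAT and SkM libraries came from the same mouse. p-values therefore measure the spread between these libraries, and in bulk RNA fewer cells of a type and less RNA per cell cannot be told apart.

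The proteasome degrades proteins that carry ubiquitin chains. Its 20S core is a barrel of outer alpha and inner beta rings, in which Psmb6, Psmb7 and Psmb5 encode the caspase-like, trypsin-like and chymotrypsin-like active subunits. The 19S cap recognises ubiquitin and unfolds the substrate with a ring of ATPases (the Psmc genes), aided by receptors, scaffolds and a deubiquitinase (the Psmd genes). The Psme genes encode caps that open the core without ubiquitin: Psme1 and Psme2 form PA28 alpha/beta, which is induced by interferon, Psme3 forms nuclear PA28 gamma and Psme4 is PA200. In muscle the proteasome carries out much of the protein loss of atrophy, and in BAT the transcription factor Nfe2l1 (NRF1) is known to maintain proteasome genes during cold adaptation.

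A BAT library held 21047242 to 24919377 counts and an SkM library 23050918 to 23425284. Levels are given in CPM, which sets each library to a common total and was scaled with TMM factors within a tissue. With library totals alone (total-count scaling), the median log2 fold change of all genes moved from 0.00 to 0.14 in SkM CR against control, to 0.16 in SkM CREX against EX and to 0.33 in BAT against SkM control libraries, while in the CR comparisons of BAT it stayed within 0.1 of 0. A change of scaling shifts all genes of a comparison by nearly the same amount. The members' median relative to that of all genes was therefore nearly unchanged by construction. With TMM and with library totals it was 0.25 and 0.26 in BAT CR against control. It was 0.13 and 0.13 in SkM CR against control and 0.20 and 0.21 in SkM CREX against EX. Of the 40 members, 38 passed the filter on low counts in each of the 13 tests. The other two are known for one tissue each and were near 0 here: the testis subunit Psma8 had at most 3 counts in a library and was above 0 in 10 of 29 libraries, and the thymus subunit Psmb11 had at most 2 counts and was above 0 in 2 of 29. Together the members made up 0.217 to 0.312% of the counts in BAT libraries and 0.230 to 0.360% in SkM libraries. The marker genes of each labelled tissue were present: 9 brown adipocyte markers summed to 10490 to 15650 CPM in the BAT groups, and 10 skeletal muscle markers summed to 127400 CPM or more in every SkM library. Muscle markers also varied widely within BAT, from 3.47 to 779 summed CPM in control, 22.3 to 1661 in CR, 6.52 to 4361 in EX and 1184 to 7347 in CREX libraries.

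The 5 promoter stretches shown belong to members called in a CR comparison of BAT, or to catalytic subunits. They are a selection, without Psmd13 or the catalytic Psmb7. Each lies upstream of the RefSeq start of transcription and outside annotated exons (GRCm38.p6, 5′ to 3′ on the gene's strand). Capitals mark 2 motifs on either strand: TGACNNNGC, the core of the antioxidant response element bound by Nfe2l1 and Nfe2l2, and CGGAAG, the core of sites of the ETS family. Psma6 (chr12:55398575-55398774, plus strand) and Psmc4 (chr7:28050102-28050342, minus strand) passed the test in both CR comparisons of BAT. Psma6 also has a promoter stretch at chr12:55383972-55384221, plus strand, which holds neither motif and is not shown. Psmd12 (chr11:107479278-107479483, plus strand) and Psmb6 (chr11:70525107-70525356, plus strand) passed it in CR against control, and Psmb5 (chr14:54618023-54618245, minus strand) passed it in neither.
Psma6: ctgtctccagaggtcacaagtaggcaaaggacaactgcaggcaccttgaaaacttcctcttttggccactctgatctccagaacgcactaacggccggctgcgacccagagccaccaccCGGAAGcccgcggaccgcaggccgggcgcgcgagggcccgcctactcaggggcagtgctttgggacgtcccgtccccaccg
Psmc4: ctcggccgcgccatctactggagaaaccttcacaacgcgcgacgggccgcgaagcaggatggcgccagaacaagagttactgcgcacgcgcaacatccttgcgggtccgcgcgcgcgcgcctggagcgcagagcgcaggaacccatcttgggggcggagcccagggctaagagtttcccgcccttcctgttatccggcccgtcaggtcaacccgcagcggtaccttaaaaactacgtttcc
Psmd12: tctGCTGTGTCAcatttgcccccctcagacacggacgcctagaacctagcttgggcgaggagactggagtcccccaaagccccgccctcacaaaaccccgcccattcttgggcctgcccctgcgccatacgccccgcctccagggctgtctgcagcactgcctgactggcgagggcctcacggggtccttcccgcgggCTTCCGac
Psmb6: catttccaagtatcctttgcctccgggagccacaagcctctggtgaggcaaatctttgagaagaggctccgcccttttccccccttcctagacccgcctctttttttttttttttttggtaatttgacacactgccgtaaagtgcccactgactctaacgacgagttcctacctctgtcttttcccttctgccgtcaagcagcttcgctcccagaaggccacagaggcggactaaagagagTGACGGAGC
Psmb5: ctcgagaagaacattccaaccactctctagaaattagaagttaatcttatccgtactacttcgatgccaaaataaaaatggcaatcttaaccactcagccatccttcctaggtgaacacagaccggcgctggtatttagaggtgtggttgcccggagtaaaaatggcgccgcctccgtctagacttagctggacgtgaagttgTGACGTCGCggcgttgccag

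A promoter sequence, from 250 bases before to 50 after the RefSeq start, was at hand for 33 members. TGACNNNGC was found in 6 of them (Psmb5, Psmb6, Psmc6, Psmd9, Psmd12 and Psme4), or 18.2%, against 14.0% of the promoters of all genes and 17.2% of those of genes tested in BAT. CGGAAG was found in 20 of the 33, or 60.6%, against 18.8% of all genes and 34.1% of the genes tested in BAT. The CCAAT letters were found in 13 members (39.4%, against 41.1% of all genes and 42.6% of the genes tested in BAT) and TATAAA in 3 (9.09%, against 15.7% of all genes and 8.94% of the genes tested in BAT). A match is a run of letters and not a bound site. The stretch of Psmc4 shown has neither capitalised motif, and CGGAAG occurs there only downstream of the start, at bases 13 to 18 on the opposite strand and 29 to 34 on the gene's strand.

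With CR the constitutive proteasome genes of BAT were higher as a group, by a small amount each. The summed level of the 40 members was 2136, 2316 and 2430 CPM in the control libraries and 2669, 3122, 2588 and 2769 CPM in the CR libraries. All CR libraries were above all control libraries, and CR replicate 2 was the highest. The means were 2787 ± 235 CPM in CR (SD, n = 4) and 2294 ± 148 CPM in control (SD, n = 3), a ratio of 1.22. The immunoproteasome genes Psmb8, Psmb9 and Psmb10 summed to 28.7 ± 3.09 CPM in CR and 26.9 ± 2.20 CPM in control, and their libraries overlapped.

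**Figure D1:**
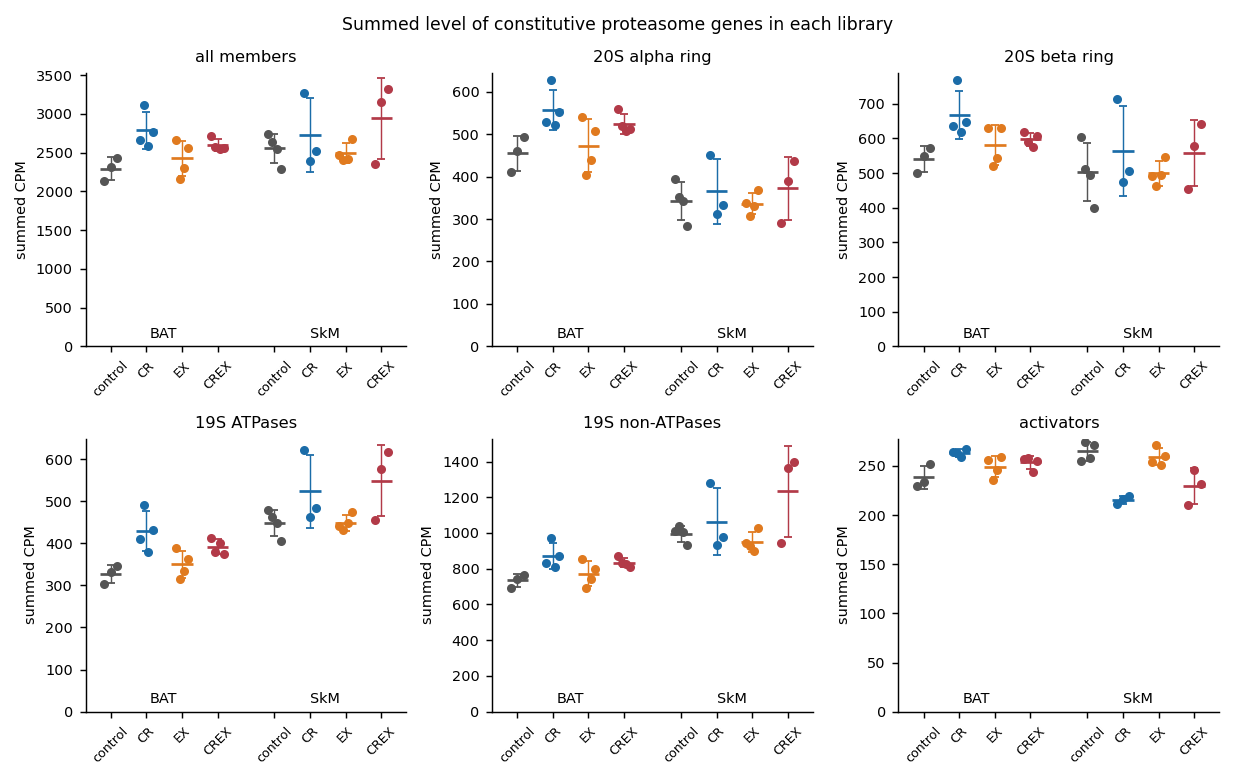
Summed CPM (vertical axes, from 0) of all constitutive proteasome genes and of each block of subunits in every library, by group; points are libraries, long bars means and whiskers SD. The CR libraries of BAT (2588 to 3122 CPM) lie above the control libraries (2136 to 2430 CPM), and in SkM CR replicate 1 (3276 CPM) and CREX replicates 2 and 3 (3154 and 3321 CPM) stand above the other libraries.

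In CR against control of BAT, 15 of 38 members were called at an adjusted p under 0.05 (edgeR's quasi-likelihood test, adjusted over 13323 genes), all 15 higher in CR. Of all genes tested 20.9% were called, and 9.99% of all genes were called higher. The fitted log2 fold change was above 0 for 38 of 38 members, with a median of 0.26 against 0.0045 over all genes, and the libraries of the groups did not overlap for 25 members (16.6% of all genes, higher). Of the called members 1, Psmc4, also passed a fold of 1.5 (10.7% of all genes did). With total-count scaling 12 were called, all higher (2671 of 13323 genes were called in all, or 20%), and 36 of 38 lay above 0. By block the called genes were 3 of 7 alpha subunits, 3 of 7 beta subunits, 4 of 6 ATPases, 4 of 14 other 19S subunits and 1 of 4 activators.

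Among the alpha subunits, Psma6 was the most clearly changed. Its level was 79.0, 89.3 and 98.1 CPM in control and 121, 148, 124 and 127 CPM in CR, so that the groups were well apart. The log2 fold change was 0.55 (SE 0.098, edgeR adjusted p = 0.00361). Psma7 (0.44) and Psma2 (0.30) were also called, whereas Psma1 stood at 79.5 ± 9.29 CPM in control and 81.5 ± 6.76 CPM in CR with overlapping libraries (95% interval of the log2 fold change −0.15 to 0.23).

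Of the beta subunits, the structural Psmb3 and Psmb4 (both 0.38) and the caspase-like Psmb6 (0.28, edgeR adjusted p = 0.0439) were called. Psmb5, the chymotrypsin-like subunit, had a log2 fold change of the same size (0.38, SE 0.14, edgeR adjusted p = 0.0858) but did not pass. Its CR libraries were uneven, with 72.3, 107, 75.0 and 75.3 CPM against 59.9, 66.9 and 63.8 CPM in control. CR replicate 2 was the high one, and the groups did not overlap. The trypsin-like Psmb7 stood at 0.26 (edgeR adjusted p = 0.0777).

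The ATPases of the 19S base had the highest median of the blocks, 0.34. Psmc4 had the largest log2 fold change of any member, with 48.9, 63.9 and 60.4 CPM in control and 87.6, 117, 82.1 and 95.9 CPM in CR. No CR library came near a control library. Its log2 fold change was 0.73 (SE 0.14, edgeR adjusted p = 0.00697), a fold of 1.66. Psmc5 followed with 0.45 (SE 0.088, edgeR adjusted p = 0.00616), from 48.4 ± 3.59 CPM in control to 66.0 ± 5.83 CPM in CR. Psmc1 (0.36) and Psmc3 (0.32) were called, and Psmc2 (0.19) and Psmc6 (0.17) were not.

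Among the other 19S subunits, the lid scaffold Psmd13 had 25.4, 30.1 and 30.7 CPM in control and 41.8, 49.3, 37.5 and 42.4 CPM in CR. The groups did not overlap, and the log2 fold change was 0.57 (SE 0.10, edgeR adjusted p = 0.00422). Psmd13 shares exonic sequence with Sirt3 on the opposite strand, and the RSEM command in the study's methods sets no strand option, so reads where the 2 genes overlap may count for either. Psmd14, the lid deubiquitinase, rose by 0.36, and the lid subunits Psmd12 (0.34) and Psmd11 (0.33) rose as well. The ubiquitin receptor Psmd4 stood at 0.14 (edgeR adjusted p = 0.281), and the assembly chaperone Psmd10 at 0.01, with an interval of −0.20 to 0.21.

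Of the 4 activators only Psme1 was called, with 47.2, 49.5 and 53.5 CPM in control and 60.0 to 65.1 CPM in CR (log2 fold change 0.32, SE 0.069, edgeR adjusted p = 0.00924). Every CR library was higher than every control library, and exons of Psme1 overlap Emc9 on the opposite strand. Its partner Psme2 stood at 0.18 (edgeR adjusted p = 0.109), and the intervals of Psme3 (−0.05 to 0.20) and Psme4 (−0.10 to 0.15) spanned 0. Reads of Psme2 can be shared with its near copy Psme2b, which was listed at 6.40 to 8.09 CPM in BAT CR libraries.

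**Figure D2:**
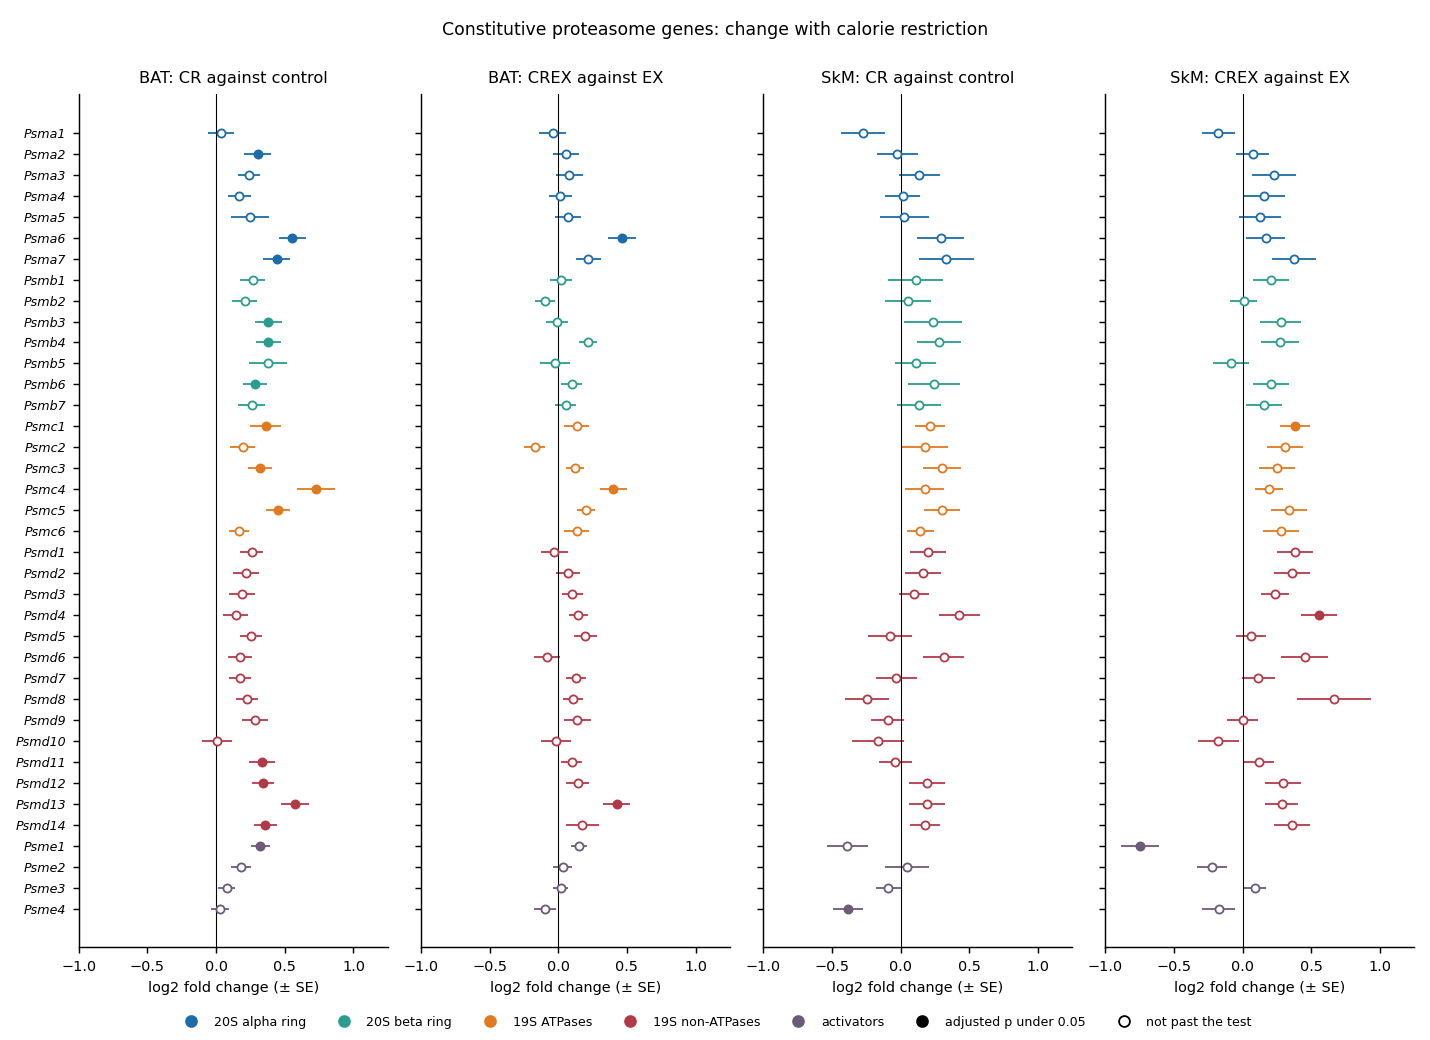
Log2 fold change (horizontal axes) with its SE for each of the 38 tested members in the 2 CR comparisons of each tissue; filled points passed an adjusted p of 0.05 and colours give the block of subunits. In BAT all 38 points lie above 0 for CR against control (15 filled), while in SkM Psme1 and Psme4 lie on the lower side.

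The calls of single members held to different degrees. Psma6, Psmc4, Psmc5 and Psmd13 kept their call in all 16 alternatives, and Psme1 in 14 of 16. The count of called members depended on single control libraries: it was 5 without control replicate 1 (12.7% of all genes called) and 7 without control replicate 2 (11.3%). Muscle markers were high in CR replicates 3 and 4 and control replicate 1 (840 to 1661, and 779 summed CPM). Without these 3 libraries 9 members were called (19.2% of all genes), and with the muscle score as a covariate 21 were (20.9% of all genes), with all calls higher in CR. None of 10 muscle markers was called. Some markers of other cells were called lower in CR: 3 of 9 brown adipocyte markers, among them Ucp1 (−1.02) and Prdm16 (−1.35), 2 of 4 endothelial markers, Kdr (−0.57) and Cdh5 (−0.47), and 2 of 5 macrophage markers, Csf1r (−0.49) and Mrc1 (−0.60). So was the B cell gene Cd79a (0.454 to 0.699 CPM in control and under the counting floor in every CR library), the 1 of 5 lymphocyte markers tested. The 9 brown adipocyte markers summed to 12770 to 13530 CPM in CR and 13750 to 15650 CPM in control. The adipocyte genes Adipoq, Plin1, Fabp4 and Cfd did not go down together, with 9070 to 10380 CPM in CR and 8536 to 9548 CPM in control. The part of these cell markers in the result was not tested.

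Among trained mice, CREX was compared with EX. The summed level was 2670, 2167, 2307 and 2559 CPM in EX and 2718, 2578, 2553 and 2556 CPM in CREX. EX replicates 1 and 4 reached the CREX range, so the groups overlapped. In CREX against EX of BAT 3 of 38 members were called by edgeR, all higher in CREX, with 8.01% of all genes called and 3.71% called higher, and the median log2 fold change was 0.10. With total-count scaling 3 were called as well (7.19% of all genes), and the share of all calls that were higher in CREX went from 46.3 to 30.1%. The 3 were Psma6, Psmd13 and Psmc4, each also called in CR against control, a comparison with other libraries.

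Psma6 had 101, 77.1, 81.3 and 104 CPM in EX and 139, 125, 117 and 121 CPM in CREX, with a log2 fold change of 0.46 (SE 0.10, edgeR adjusted p = 0.0258). Psmd13 had 36.3, 25.7, 29.9 and 34.5 CPM in EX and 44.4, 42.5, 40.9 and 42.4 CPM in CREX (0.42, SE 0.10, edgeR adjusted p = 0.0313). Psmc4 had 76.6, 57.2, 62.0 and 63.3 CPM in EX and 97.2, 84.6, 81.3 and 79.8 CPM in CREX (0.40, SE 0.099, edgeR adjusted p = 0.0366). In all 3 genes the lowest CREX library was above the highest EX library. The active subunits Psmb5, Psmb6 and Psmb7 had log2 fold changes of −0.03, 0.10 and 0.05. None was called without CREX replicate 1, 2 or 4 or without EX replicate 3, and 1 was without EX replicate 2, although the log2 fold changes stayed at 0.33 to 0.54 for Psma6, 0.28 to 0.51 for Psmd13 and 0.32 to 0.50 for Psmc4 over their 17 alternatives. Without the libraries highest in muscle markers (CREX replicate 3 and EX replicates 2 and 3) none was called and the median was 0.00. Of the other cell markers Ucp1 (−0.99) and Prdm16 (−0.97), 2 of 9 brown adipocyte markers, were called lower in CREX. So was Cd79a (0.549 to 0.785 CPM in EX and at most 0.118 CPM in CREX), the 1 of 5 lymphocyte markers tested. Their part was not tested.

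Training itself gave no call in BAT. EX against control called 0 of 38 members (0 at an unadjusted p under 0.05, 0 by DESeq2, 0.0% of all genes by edgeR), with a median of 0.09. CREX against CR called 0 (4 unadjusted, all lower in CREX, 0 by DESeq2, 0.00763% of all genes by edgeR), with a median of −0.09. Over all genes, 972 of 13407 passed unadjusted in EX against control and 1001 of 13112 in CREX against CR. Whether the CR effect differed with training was tested as an interaction, which called 0 members by edgeR (0.0% of all genes) and 0 by DESeq2. Unadjusted, 6 members passed, all with a smaller CR effect under training, against 800 of 13922 genes. The smallest interaction p, unadjusted, was that of Psmc2 (−0.36, SE 0.12, edgeR adjusted p = 0.824).

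**Figure D3:**
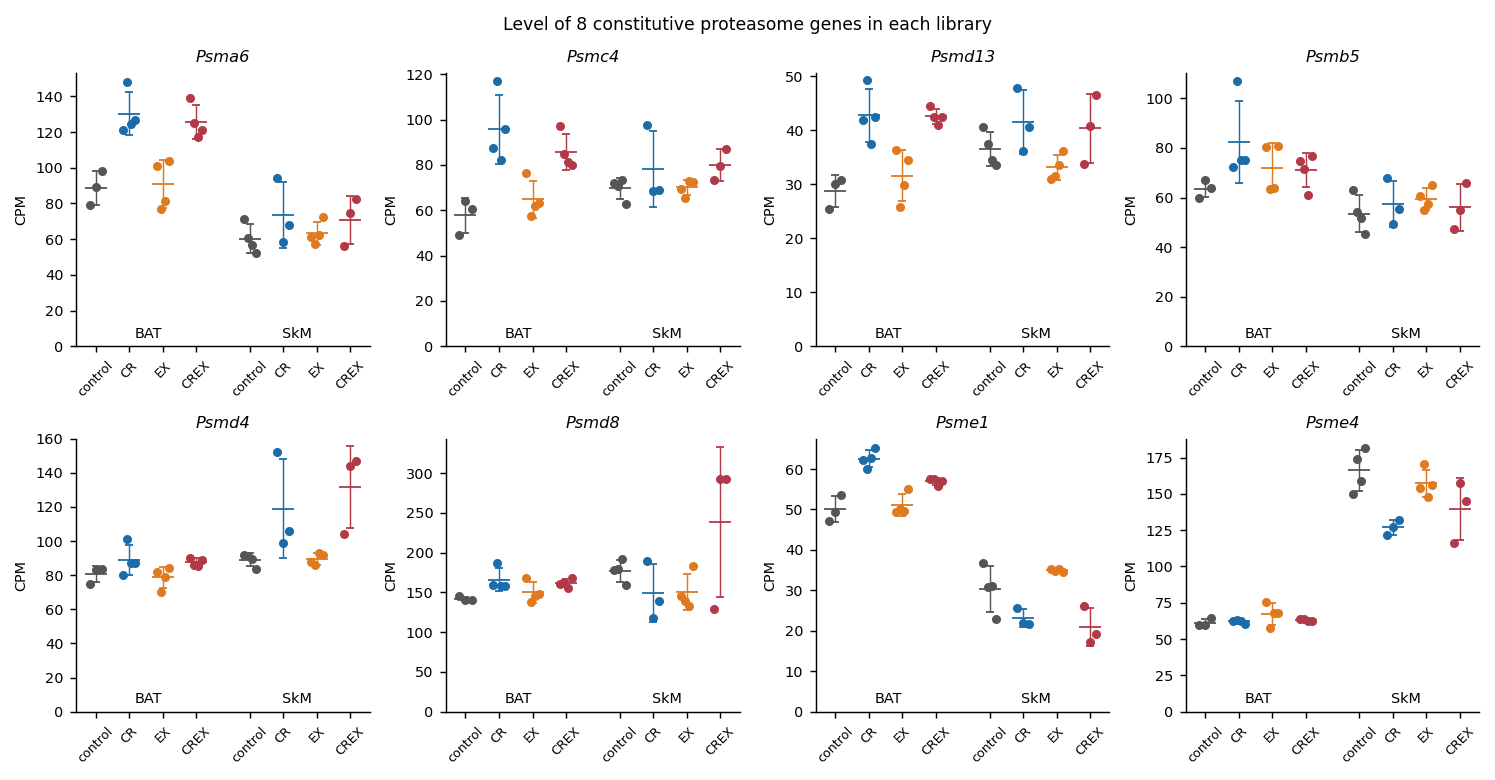
CPM of 8 members in every library of BAT and SkM by group, with mean and SD; the vertical axes start at 0. Psma6, Psmc4 and Psmd13 are higher in both CR groups of BAT than in control and EX, Psme1 is higher in BAT CR than in control and lower in SkM CREX (17.2 to 26.1 CPM) than in EX (34.6 to 35.3 CPM), and Psmd8 reaches 293 CPM in 2 SkM CREX libraries.

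In SkM the level of the members in the CR groups depended on the scaling, and single libraries stood apart. In CR against control the summed level was 2741, 2639, 2546 and 2296 CPM in control and 3276, 2396 and 2518 CPM in CR. CR replicate 1 was above every control library and the other CR libraries were inside the control range. As a share of all counts, however, the members made up 0.319, 0.263 and 0.285% in CR and 0.239 to 0.256% in control, so that every CR library was above every control library. On the TMM scale, 30 of 38 members in CR replicate 1 were above the highest control library, and in CR replicates 2 and 3 this held for 5 and 6. The same count was not made over all genes, so these counts cannot be set against a background. The edgeR test called 1 of 38 members, against 14.0% of all genes (7.67% lower), and the median log2 fold change was 0.14. With total-count scaling 5 were called (Psmc1, Psmc3, Psmc5, Psmd4 and Psmd6, 14.1% of all genes), all higher in CR, the median was 0.27, and the share of all calls that were higher went from 45.1 to 75.5%.

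The member called with TMM was Psme4, the PA200 activator, and it was lower in CR. It had 150, 174, 159 and 182 CPM in control and 122, 127 and 132 CPM in CR, with no overlap (log2 fold change −0.38, SE 0.11, edgeR adjusted p = 0.0433). The call was lost without CR replicate 2 or 3 or control replicate 2 or 3, and with total-count scaling (−0.24, edgeR adjusted p = 0.248), and the value stayed between −0.42 and −0.24 over its 15 alternatives (adjusted p 0.00473 to 0.248). Psme1 stood at −0.39 (edgeR adjusted p = 0.124). The 19S receptor Psmd4 was 83.5 to 91.5 CPM in control and 152, 98.8 and 106 CPM in CR, higher in each CR library, but it missed the threshold (0.43, edgeR adjusted p = 0.0929). Mylpf (0.95) and Atp2a1 (0.59), 2 of 10 muscle markers, and Myl2, 1 of 7 slow fibre markers, were called higher in CR. The slow fibre markers ran from −0.32 (Atp2a2, not called) to 0.62 (Myl2). Kdr (−1.27) and Cdh5 (−0.66), 2 of 4 endothelial markers, were called lower. So were Dio2 (−1.51) and Cox7a1 (−0.71), 2 of 6 brown adipocyte markers tested, a list that ran up to 3.34 (Adipoq, not called). The part of these cell markers was not tested.

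In CREX against EX of SkM, 3 members were called by edgeR, 2 higher and 1 lower in CREX (13.6% of all genes, 6.62% higher and 6.96% lower), and the median log2 fold change was 0.21. The summed level was 2469, 2402, 2421 and 2681 CPM in EX and 2353, 3154 and 3321 CPM in CREX. CREX replicates 2 and 3 were above every EX library, and CREX replicate 1 was below all of them. As a share of all counts CREX replicate 1 (0.245%) was above 3 of the 4 EX libraries (0.230 to 0.248%), and CREX replicates 2 and 3 (0.331 and 0.360%) were again the highest. With total-count scaling 17 members were called, 16 higher and Psme1 lower (24.0% of all genes), the median was 0.37, and the share of all calls that were higher went from 48.7 to 79.3%. Psmd4 was higher in CREX (85.7 to 92.9 CPM in EX, 104, 144 and 147 CPM in CREX, log2 fold change 0.56, SE 0.13, edgeR adjusted p = 0.0247). Psmc1, an ATPase, was higher too (0.38, SE 0.11, edgeR adjusted p = 0.0482).

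Psme1 fell. It had 35.2, 34.9, 35.3 and 34.6 CPM in EX and 26.1, 17.2 and 19.1 CPM in CREX, a log2 fold change of −0.75 (SE 0.14, edgeR adjusted p = 0.0122), and the groups were far apart. The interferon-induced Psmb9 fell as well, from 1.87 ± 0.554 CPM in EX to 0.657 ± 0.268 CPM in CREX (−1.51, SE 0.36, edgeR adjusted p = 0.0256). Psmb8 stood at −0.75 (edgeR adjusted p = 0.0988), Psmb10 at −0.39 and Psme2 at −0.22, and none of the 3 passed. All 5 of these interferon-induced genes lay below 0. Of the 38 members, which include Psme1 and Psme2, 33 were above the EX mean in each of CREX replicates 2 and 3 and 10 in CREX replicate 1. The same count was not made over all genes, so these counts cannot be set against a background.

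Psmd8, a lid subunit and the most abundant member in SkM per length of transcript, varied most. It had 146, 139, 132 and 183 CPM in EX and 129, 293 and 293 CPM in CREX. The CREX libraries were split, with replicate 1 below every EX library and the other two far above (0.67, SE 0.27, edgeR adjusted p = 0.129). The interaction value of Psmd8 was 0.93 (SE 0.35, edgeR adjusted p = 0.941).

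The libraries that stood apart also did so in other genes. Slow fibre markers, 7 genes of oxidative muscle fibres, had a mean log2(CPM + 1) of 3.27 and 1.87 in CREX replicates 2 and 3, 6.03 in CREX replicate 1 and 4.61 to 7.98 in the other SkM libraries. Endothelial markers were at 4.51 and 4.13 in the same 2 libraries, at 4.72 in CR replicate 1 and at 5.13 to 5.85 in the rest. Without CREX replicate 1, 24 members were called (23 higher, with 31.2% of all genes called). Without CREX replicates 2 and 3 none was called (2.3% of all genes) and the median was −0.11, where the lone CREX library was assumed to vary like the others. With the slow fibre score as a covariate, 0 were called and the median was −0.03, and 0.427% of all genes were called. Leaving out any other single library of the comparison left 1 call, lower in CREX. Among the cell markers Cdh5 (−0.96), 1 of 4 endothelial markers, was called lower in CREX. So were Dio2 (−2.32) and Cox7a1 (−1.18), 2 of 7 brown adipocyte markers tested, a list that ran up to 0.92 (Adipoq, not called). Atp2a1 (0.55) was called higher, 1 of 10 muscle markers, which ran down to −0.90 (Myh1, not called). Apart from the covariate fit the part of fibre type or cell mix was not tested.

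**Figure D4:**
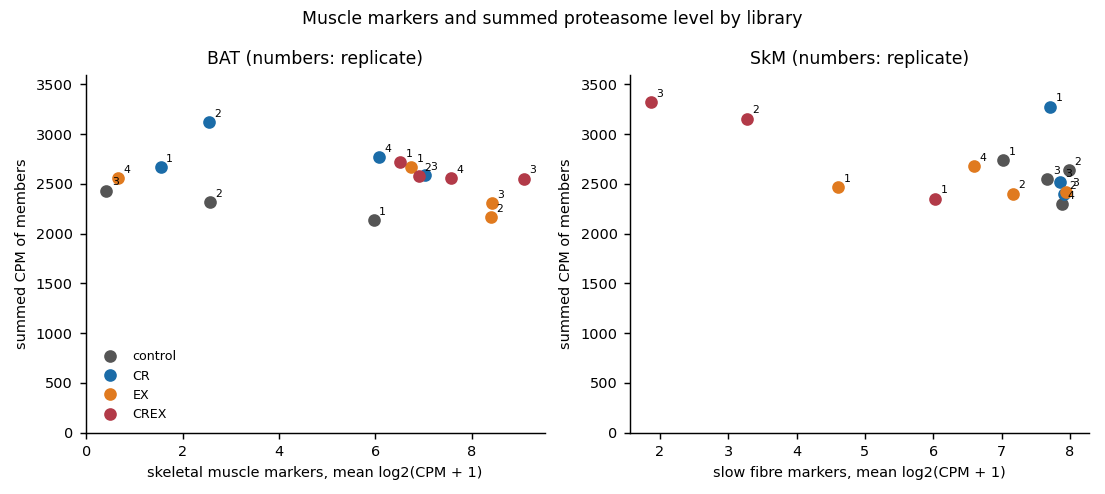
Summed CPM of the members (vertical axes) against the mean log2(CPM + 1) of 10 skeletal muscle markers in BAT libraries (left) and of 7 slow fibre markers in SkM libraries (right); numbers give the replicate and colours the group. In SkM, CREX replicates 2 and 3 combine the lowest slow fibre scores (3.27 and 1.87) with high summed levels, while CR replicate 1 has a high level at a score of 7.71.

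Training alone gave no call in SkM. EX against control called 0 of 38 members by edgeR (1 unadjusted, 0 by DESeq2, 0.093% of all genes by edgeR). CREX against CR called 0 (0 unadjusted, 0 by DESeq2, 0.0% of all genes). The interaction also called 0 (1 unadjusted, 0 by DESeq2, 0.0% of all genes). Unadjusted, 884 of 12907, 477 of 13068 and 669 of 13610 genes passed in these tests, in this order. Without CREX replicate 1 the interaction called 1 member.

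The CR effects of the tissues were compared in 1 fit over both. It treated BAT and SkM libraries as independent, although some may come from the same mouse. For CR against control the difference was called for Psme1 and Psme4 (2 of 38 members, 7.58% of all genes). The effect on Psme1 was 0.72 log2 units higher in BAT than in SkM (SE 0.17, edgeR adjusted p = 0.0205), and that on Psme4 was 0.42 higher (SE 0.12, edgeR adjusted p = 0.0439). For CREX against EX only Psme1 was called (5.58% of all genes), with a difference of 0.91 (SE 0.14, edgeR adjusted p = 0.00545), and of the immunoproteasome genes Psmb9 was (1.66). Psme1 kept its call in 17 of 18 alternatives in the first and 19 of 19 in the second comparison, and Psme4 in 5 of 18. With total-count scaling 1 was called in the first comparison (Psme1, 8.82% of all genes), and 5 in the second (Psme1 higher, and Psmc2, Psmd1, Psmd4 and Psmd6 lower in BAT relative to SkM, 12.3%). The share of all calls that were higher in BAT then went from 51.9 to 17.7% and from 54.2 to 12.1%, and the members' median from 0.16 to −0.01 and from −0.10 to −0.32. For Psma6, Psmc4 and Psmd13 no tissue difference was called. Without SkM CR replicate 1, 8 members were called in the first comparison (9.65% of all genes). Without SkM CREX replicate 1, 8 were in the second (15.2%).

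The control libraries also showed how the complement of subunits differed between tissues. In BAT against SkM, 28 of 38 members were called (7 higher and 21 lower in BAT), while 74.9% of all genes were called (37.2% higher and 37.7% lower), so that the count of calls lies at the background. With total-count scaling 29 were called, 15 higher and 14 lower (75.7% of all genes), and the share of all calls that were higher went from 49.7 to 63.5%. The median of the cap genes lay below that of the core genes. A change of scaling shifts both medians by nearly the same amount, so it could not test this gap. With TMM all 6 ATPases and 11 of 14 other 19S subunits were lower in BAT, with a median log2 difference of −0.64 over the 20 genes of the cap. The 14 core genes had a median of −0.01, with 3 called higher and 3 lower. With total-count scaling the cap had a median of −0.31 (3 higher and 13 lower) and the core 0.32 (9 higher and 0 lower), so the direction of the core genes depended on the scaling. Of the cap genes Psmd10 and Psmd14 were called higher in BAT, and Psmd5 was not called with TMM.

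Psmd7, a lid scaffold, differed most in the cap. On a scale set over both tissues it was at 36.8 ± 2.54 CPM in BAT (SD, n = 3) and 107 ± 5.03 CPM in SkM (SD, n = 4), a log2 difference of −1.56 (SE 0.088, edgeR adjusted p = 1.5e-08). Psmd6 (−1.29), Psmc3 (−1.15) and Psmc2 (−1.12) followed, and these 4 were called lower with total-count scaling too. The catalytic Psmb5 was at 57.9 ± 3.08 CPM in BAT and 57.8 ± 7.87 CPM in SkM (interval of the difference −0.24 to 0.19), while Psmb6 (−0.57) and Psmb7 (−0.36) were called lower in BAT. With total-count scaling Psmb5 was called higher (0.31) and Psmb6 (−0.23) and Psmb7 (−0.03) were not called.

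The activators were the extremes in both directions. Psme2 was at 54.5 ± 3.95 CPM in BAT and 12.4 ± 1.70 CPM in SkM, a fold of 4.31 (log2 difference 2.11, SE 0.11, edgeR adjusted p = 9.5e-09). Psme1 was higher in BAT by less (0.45), and the immunoproteasome genes Psmb9 (1.65), Psmb8 (1.11) and Psmb10 (0.73) were higher too. Psme4 was at 55.7 ± 2.47 CPM in BAT and 180 ± 15.9 CPM in SkM (−1.72, SE 0.097, edgeR adjusted p = 1.49e-08). Psme3 was at 61.3 ± 1.43 and 61.7 ± 1.41 CPM, with an interval of −0.18 to 0.11, and was called higher with total-count scaling (0.29). Psme1, Psme2 and Psme4 kept direction and call.

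**Figure D5:**
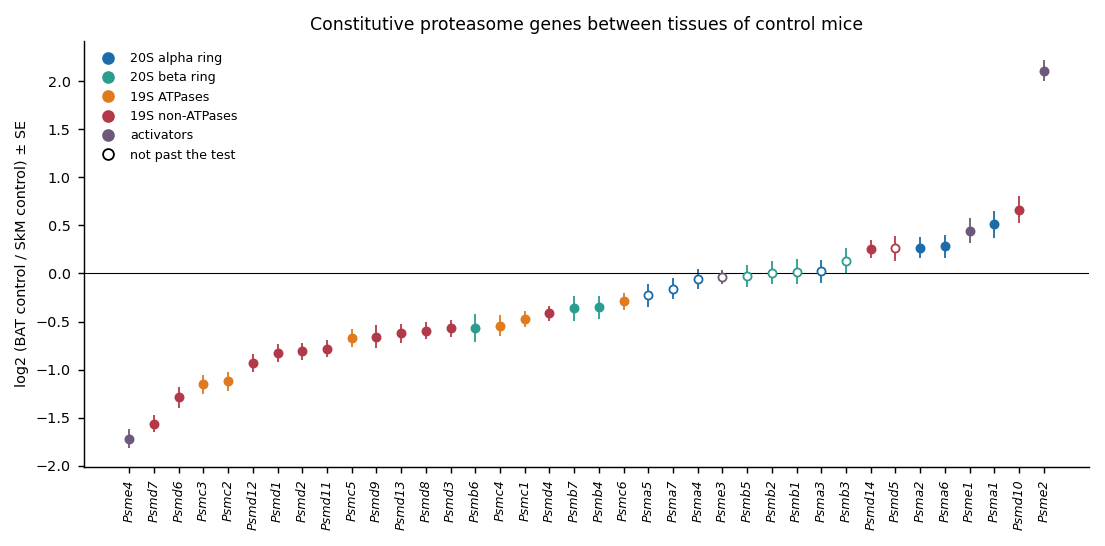
Log2 ratio of BAT to SkM control libraries (vertical axis) with its SE for the 38 tested members, in order of size and coloured by block. Psme4 (−1.72) and Psme2 (2.11) are at the ends, and the 19S genes make up most of the 26 genes below 0 on the TMM scale (20 with total-count scaling).

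Levels were compared between genes only per kilobase of the longest principal transcript of each gene in GENCODE M21. This annotation may differ from the one used for counting, and the levels depend on the transcript chosen. In BAT control libraries Psmb3 (122 CPM per kilobase), Psmd8 (92.1) and Psma6 (85.2) were highest, and Psmd5 (4.14), Psmd9 (4.47) and Psmd10 (6.14) were lowest of the tested members. In SkM the order began with Psmd8 (115), Psmb6 (96.4) and Psmb3 (91.9). The median per block was 78.7 for the beta ring, 48.4 for the alpha ring, 36.0 for the ATPases and 23.6 for the other cap subunits in BAT, and 69.6, 38.4, 48.4 and 34.8 in SkM. Psmd5, Psmd9 and Psmd10 are assembly chaperones rather than parts of the finished complex.

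Genes around the proteasome were taken from 4 lists. Of 13 assembly factors and associated proteins in the count table, 3 were called in BAT for CR against control (23.1%, near the 20.9% of all genes), all higher: the proteasome inhibitor Psmf1 (0.37, edgeR adjusted p = 0.0201), the ubiquitin receptor Adrm1 (0.35) and the chaperone Psmg1 (0.27). Psmf1 was at 14.3, 16.5 and 14.3 CPM in control and 17.6, 20.96, 18.8 and 20.2 CPM in CR, and it was called in CREX against EX as well (0.37, edgeR adjusted p = 0.0236). The maturation factor Pomp stood at 0.24 and −0.07 in these 2 comparisons and was called in neither. In SkM none of the 13 was called in either CR comparison by edgeR.

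The list on regulation of proteasome genes had 15 genes tested in BAT. Nfe2l1 itself was at 292, 270 and 277 CPM in control and 292, 244, 312 and 288 CPM in CR, with overlapping groups (0.02, SE 0.082, edgeR adjusted p = 0.867), and Nfe2l2 stood at 0.07. Keap1, which holds Nfe2l2 in the cytoplasm (0.30), Ngly1, the glycanase that processes Nfe2l1 (0.23), and Foxo3, a transcription factor of fasting (0.72), were called higher in CR, which with Nfe2l3 made 4 of 15 (26.7%, against 20.9% of all genes). Nfe2l3, a relative of Nfe2l1, was called lower (−2.62) at a level of 0.61 to 0.83 CPM in control and 0.05 to 0.17 CPM in CR, near the counting floor. In CREX against EX of BAT only Foxo3 was called (0.66).

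In SkM, 14 genes of the list were tested. Foxo3 was higher with CR in both comparisons (1.05 and 1.21), from 14.8 to 19.2 CPM in control to 31.8 to 36.9 CPM in CR. Mafk, a partner of the Nfe2l factors, was called lower in CR against control (−0.45). With Foxo3 this made 2 of 14 there (14.3%, near the 14.0% of all genes). In CREX against EX, Ddi2, the protease that activates Nfe2l1 (0.85), the Vcp cofactor Nploc4 (0.53) and Keap1 (0.44) were called higher, which with Foxo3 made 4 of 14 (28.6%, against 13.6% of all genes). Nfe2l1 had −0.48 in CR against control (edgeR adjusted p = 0.0534) and −0.24 in CREX against EX.

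Among 15 ubiquitin genes, E1 enzymes and shuttle factors, Ubb, a polyubiquitin gene, was called in BAT for CR against control (0.37, edgeR adjusted p = 0.0166), with 440, 417 and 469 CPM in control and 570, 627, 594 and 490 CPM in CR. No other gene of the list was called there. In the CR comparisons of SkM, Ddi2, which stands on both lists, was the only gene of this list called.

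Of 10 ubiquitin ligases linked to muscle atrophy, Cblb was called higher in both CR comparisons of BAT (1.61 and 1.03), 1 of 10 in each, against 20.9 and 8.01% of all genes. In SkM CREX against EX, 3 of the 10 were called higher (6.62% of all genes were): Trim63 (MuRF1, 1.32, SE 0.27, edgeR adjusted p = 0.0197), Fbxo32 (atrogin-1, 0.95, SE 0.24, edgeR adjusted p = 0.0362) and Cblb (0.57). Trim63 was at 125, 120, 88.9 and 112 CPM in EX and 159, 299 and 379 CPM in CREX, highest in the same 2 libraries whose summed proteasome level was high. SkM CR replicate 1 had 485 CPM against 121 and 172 CPM in the other CR libraries, and Trim63 was not called in CR against control (0.80, edgeR adjusted p = 0.219). Fbxo30 was called lower in that comparison (−0.69).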

How the data were processed

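RNA-seq of BAT and SkM was analysed from the values the authors deposited, which are expected counts per gene symbol from RSEM after STAR 2.7.10a alignment to mm10, without scaling. Which annotation RSEM used is not given in the sources used here. Counts were rounded and tested with edgeR 4.0.16 in R 4.3.3 (TMM, filterByExpr, robust quasi-likelihood test, Benjamini-Hochberg adjustment over all genes tested) on the libraries of the groups compared. Interactions were fitted over all 4 groups of a tissue, and tissue differences over both tissues. Tests across tissues did not model a pairing of BAT and SkM libraries by mouse, which the labels do not give. A call is an adjusted p under 0.05. The standard error is the size of the log2 fold change divided by the square root of F, and 95% intervals are derived from it. At these depths 3 counts correspond to 0.120 to 0.143 CPM, which covers counting error only. Groups came from the sample labels. The members and gene lists were chosen with earlier results of these data known. Named genes were up to 5 called members with the smallest adjusted p per comparison and direction, members that passed no filter, the catalytic subunits, the activators and immunosubunits, up to 3 called genes per list and direction, and 8 fixed pathway genes. Others, such as Psmd8, Psmc2, Psma1, Psmd10 and the remaining called members, were named after their values were seen. Positions are from GENCODE M21 and promoters from RefSeq (GRCm38.p6). Alternatives were DESeq2 1.42.0, RLE factors, total-count scaling (added after seeing the data), other filters, 1 fit over all groups, a replicate block, other thresholds, marker covariates and each library left out. The tests were checked on simulated data. Deposited symbols turned into dates by a spreadsheet (27) were no members.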

Additional observations from a re-analysis of the deposited data

Results flagged for a closer look

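Of 100 groups of values examined for a library far from the rest of its group, 6 were picked out, and chance picks out about 1 in 20. In BAT CREX, the summed level of the members was 2718 CPM in replicate 1 and 2553 to 2578 CPM in the others. In BAT CR, replicate 2 was high in Psmb5 (107 CPM, others 72.3 to 75.3) and in Psmd8 (187.5 CPM, others 158 to 159). In BAT EX, replicate 4 was high in Psme1 (55.1 CPM, others 49.4 to 50.2). In BAT CREX, replicate 3, the library with the highest muscle score (9.08), was low in Psme2 (59.1 CPM, others 66.8 to 67.8) and in Psme3 (66.9 CPM, others 68.8 to 69.2).

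Effects that differed between the tissues by the test of the difference in edgeR were those of CR against control on Psme1 (0.72 log2 units higher in BAT) and Psme4 (0.42), and that of CREX against EX on Psme1 (0.91).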

How the results depend on the processing

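The counts of called members were recomputed in 234 alternatives over 13 results, of which 173 stayed within 1.5 times the reported count. For 25 results of called members there were 369 alternatives: 301 kept the call, 68 lost it and 0 reversed direction. These results were picked for a small adjusted p, so a kept direction is a weak check. Members that were not called could change sign. Psme4 in BAT CR against control went from 0.03 with TMM to −0.01 with total-count scaling. With each library left out, the count ran from 5 to 21 in BAT CR against control and 0 to 3 in BAT CREX against EX. It ran from 0 to 1 in SkM CR against control, 1 to 24 in SkM CREX against EX and 0 to 1 in the SkM interaction. For the tissue differences it ran from 0 to 8 for CR against control and 1 to 8 for CREX against EX. Of all genes, 12.7% were called at the 5 in BAT and 31.2% at the 24 in SkM. At the 8 of each tissue difference 9.65 and 15.2% were. For the other ends this share is not given here. At an unadjusted p under 0.05 counts were 27 and 9 in the CR comparisons of BAT (all genes: 4767 of 13323 and 3392 of 13251). In those of SkM they were 4 and 14 (all genes: 3866 of 13173 and 4235 of 13112). BAT CREX against CR gave 4 (1001 of 13112), and SkM EX against control 1 (884 of 12907). The interactions gave 6 in BAT (800 of 13922) and 1 in SkM (669 of 13610). The tissue differences gave 7 and 5 (3336 of 14369 and 3199 of 14410). With a minimum fold of 1.5 called members were 1 and 0 in BAT (all genes: 1430 of 13323 and 594 of 13251). In SkM they were 0 and 1 (1264 of 13173 and 1163 of 13112), and between the tissues of control mice 15 (8283 of 13797). Without a filter on low counts SkM CR against control gave 0 and its tissue difference 1. DESeq2 gave 5 in SkM CREX against EX, and the slow fibre covariate 0. Alternatives chosen after seeing the data were total-count scaling (5 in SkM CR against control, 17 in SkM CREX against EX, and 1 and 5 for the tissue differences) and fits that left out the BAT libraries highest in muscle markers (9 for CR against control, 0 for CREX against EX) and SkM CREX replicates 2 and 3 (0 for CREX against EX).

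In no comparison did all libraries with the same replicate number deviate together: correlations ran from −0.47 to 0.0034 in BAT CR against control, −0.111 to 0.497 in BAT CREX against EX and −0.0154 to 0.309 in SkM CR against control. They were taken to share only a number. With a replicate block 5 members were called in BAT CR against control and 3 in SkM CR against control. In SkM CREX against EX 1 was called, and 1 in the tissue difference of CR against control. The other counts stayed within 1.5 times. The share of all genes called in these block fits is not given here, so the counts cannot be set against it. With 3 or 4 libraries a group, the smallest called change of a member was 0.28 log2 units in BAT CR against control.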
